A study of Mus musculus with 9 samples.

Results

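Several steps of glycolysis and of lactate handling are run by more than 1 enzyme or transporter gene, and the choice of gene differs between striated muscle, liver, brain and fetal tissue. Compared here were 10 such genes of the 38293 in the count table, taken as a named list: the phosphofructokinases Pfkm, Pfkl and Pfkp, the aldolases Aldoa and Aldoc, the muscle enolase Eno3, the lactate dehydrogenases Ldha and Ldhb, and the lactate transporters Slc16a1 and Slc16a3. RNA came from whole ventricles of mice at postnatal day 7, with 5 libraries of Arid1a f/f control animals, which carry the floxed Arid1a alleles and no Cre, and 4 libraries of αMHC-Cre;Arid1a f/f animals (cKO). The floxed alleles are therefore shared by both groups, and the groups differ in Cre, which the αMHC promoter drives in cardiomyocytes. In other cells of the ventricle the floxed alleles stay unrecombined. Arid1a encodes a part of the SWI/SNF chromatin remodeller that contacts DNA. No group of Cre-carrying animals without floxed alleles was analysed here. The labels do not say whether a library is 1 animal or a pool, so a p-value measures the spread between these libraries.

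Glycolysis splits glucose into pyruvate. Phosphofructokinase commits sugar to the pathway and is its main control point; the muscle subunit is Pfkm, the liver subunit Pfkl and the platelet subunit Pfkp, and the enzyme is a tetramer that can mix them. Aldolase then cleaves the doubly phosphorylated sugar, by the muscle and fetal form Aldoa or the brain form Aldoc. Enolase acts near the end of the pathway and has a ubiquitous form, Eno1, a neuronal form, Eno2, and a muscle form, Eno3. Lactate dehydrogenase interconverts pyruvate and lactate: Ldha subunits prevail in tissues that make lactate and Ldhb subunits in the adult heart, which burns it. Slc16a1 (MCT1) carries lactate into and out of most cells, including heart muscle, whereas Slc16a3 (MCT4) is known for lactate export from strongly glycolytic cells. The heart depends on glycolysis before birth and turns to fatty acid oxidation in the first days after it.

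Promoter windows of 3 genes are shown because these genes moved most: Aldoc and Slc16a3, the largest rises among the 10, and Ldha, the largest fall. Each is the RefSeq window on GRCm38.p6 from 250 bases before to 50 bases after the annotated start, on the + strand. Capitals mark ACGTG or its reverse complement CACGT, the core of the hypoxia response element, and, in Aldoc, CATTCC, the reverse complement of the TEAD core GGAATG.
Aldoc, chr11:78322823-78323122: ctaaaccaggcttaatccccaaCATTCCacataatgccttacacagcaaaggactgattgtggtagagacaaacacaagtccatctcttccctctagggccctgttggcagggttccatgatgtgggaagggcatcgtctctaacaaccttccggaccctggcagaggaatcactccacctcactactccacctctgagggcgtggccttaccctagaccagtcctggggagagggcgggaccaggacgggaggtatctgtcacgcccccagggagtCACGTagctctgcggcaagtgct
Slc16a3, chr11:120948817-120949116: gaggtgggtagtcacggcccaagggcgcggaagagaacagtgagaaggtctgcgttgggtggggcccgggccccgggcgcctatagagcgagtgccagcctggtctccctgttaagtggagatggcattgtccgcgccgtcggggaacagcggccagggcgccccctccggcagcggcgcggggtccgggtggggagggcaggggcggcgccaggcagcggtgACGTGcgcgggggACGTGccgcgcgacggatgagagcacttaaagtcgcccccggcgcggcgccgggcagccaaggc
Ldha, chr7:46845554-46845853: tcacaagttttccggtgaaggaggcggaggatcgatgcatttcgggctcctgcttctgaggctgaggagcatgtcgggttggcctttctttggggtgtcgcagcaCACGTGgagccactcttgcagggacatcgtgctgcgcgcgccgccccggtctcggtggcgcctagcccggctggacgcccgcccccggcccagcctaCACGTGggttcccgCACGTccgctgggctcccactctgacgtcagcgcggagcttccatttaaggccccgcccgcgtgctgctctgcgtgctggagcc

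The Aldoc window held 1 hypoxia core site, the Slc16a3 window 2 and the Ldha window 3, where overlapping matches on both strands were merged into 1 site. Of all 32851 mouse windows 19.6% held this core, 14.7% held the TEAD core and 4.72% held the estrogen-related receptor core AAGGTCA. All 10 genes matched the table, with 17 windows, of which 8 held the hypoxia core, 3 the TEAD core and 0 the estrogen-related receptor core. Windows 2 and 3 of Aldoa overlap and share the same hypoxia core site, which is counted in both. The first-listed window held the hypoxia core in 5 of 10 genes. Besides the 3 genes shown, the first-listed windows of Pfkm and Slc16a1 and later windows of Aldoa held it, none of which passed the test below, while those of Pfkl and Pfkp did not hold it. The hypoxia core contains a CG pair, and these shares were not matched for CG content. Of the first-listed windows with the core, Slc16a1 held 42 CG pairs, Slc16a3 36, Ldha 30, Aldoc 8 and Pfkm 4. Of those without it, Pfkp held 21, Pfkl 20, Ldhb 17, Eno3 3 and Aldoa 0. The median over all windows was 7. A match of letters is a description, not a bound site.

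Total counts ran from 31011055 to 40073801 per library. Arid1a read 128 to 148 counts per 1000000 (CPM, scaled by TMM) in control and 100.3 to 113 CPM in cKO, without overlap. The libraries formed a pair of sets that each held both genotypes. In control replicates 1 and 2 and cKO replicates 1 to 3 the ribosomal protein gene copy Rps3a3 stayed under 10 CPM (Rps3a3-low libraries), and it exceeded 10 CPM in control replicates 3 to 5 and cKO replicate 4 (Rps3a3-high libraries). Rps3a3 read 0.345 to 0.521 CPM in the Rps3a3-low and 99.7 to 112 CPM in the Rps3a3-high libraries. Rps3a1 ran the other way, at 253 to 276 CPM in the Rps3a3-low and 70.8 to 75.7 CPM in the Rps3a3-high libraries. The labels name no batch, so what the sets are is not known, and values within each set are given for the 10 genes and the list genes that passed. The Rps3a3-high set has 1 cKO library, which its fit takes to vary as the controls do. Summed cardiomyocyte markers read 42943 to 49828 CPM in control and 39531 to 44008 CPM in cKO, with 1 of 8 genes higher and 1 lower past the threshold and 4 at an unadjusted p under 0.05. Within that list Nppa read 102 to 123 against 711 to 2432 CPM in cKO, and Pln 5423 to 6305 against 3735 to 5072 CPM. Skeletal muscle markers summed to under 10 CPM in every library, with 7 of 12, among them Actn3, Myog and Pvalb, under 0.5 CPM throughout. Their sums were nonetheless higher in cKO, at 6.31 to 8.14 against 3.68 to 6.17 CPM, and of the 4 tested 0 passed by edgeR and 4 had an unadjusted p under 0.05. Fibroblast markers were higher in cKO, at 8559 to 9507 against 6923 to 8213 CPM in sum (4 of 8 genes rose), while 2 of the 7 smooth muscle and mural markers rose, Acta2 and Cnn1. The sum of the smooth muscle and mural list, 3508 to 4771 against 1764 to 2135 CPM, was carried by Acta2 at 2051 to 3296 against 532 to 887 CPM. The other 5 genes of that list overlapped between the groups, and Myh11 ran lower in cKO, at 40.2 to 61.7 against 55.7 to 79.1 CPM. Macrophage and leukocyte markers summed to 88.1 to 164 against 72.4 to 112 CPM (by edgeR 0 of 8 passed, 1 at an unadjusted p under 0.05), and neuron and glia markers to 8.32 to 15.1 against 11.8 to 15.9 CPM (0 of 5 tested passed, 1 at an unadjusted p under 0.05).

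In cKO ventricles Aldoc and Slc16a3 rose several-fold from very low levels, Pfkl rose modestly, Ldha and Pfkp fell, and the main muscle isoforms Pfkm, Aldoa and Eno3 and the transporter Slc16a1 did not pass the test. All 10 genes passed the filter on low counts. At an adjusted p under 0.05 (edgeR's quasi-likelihood test, Benjamini-Hochberg over 15318 genes) 5 of 10 passed, 3 higher and 2 lower, beside 16.3% of all tested genes, 8.25% higher and 8.03% lower. With a change over 1.5-fold required as well, the rule for a called gene, 2 of 10 were called, both higher, beside 6.72% of all tested genes called and 4.01% called higher. The groups did not overlap in 4 of 10 genes, 2 higher and 2 lower, beside 16.7% of all, 8.16% higher and 8.58% lower. The median log2 fold change of the 10 genes was 0.03, and that of all tested genes 0.01. In bulk tissue fewer cells of a type and less RNA per cell cannot be told apart.

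**Figure D1:**
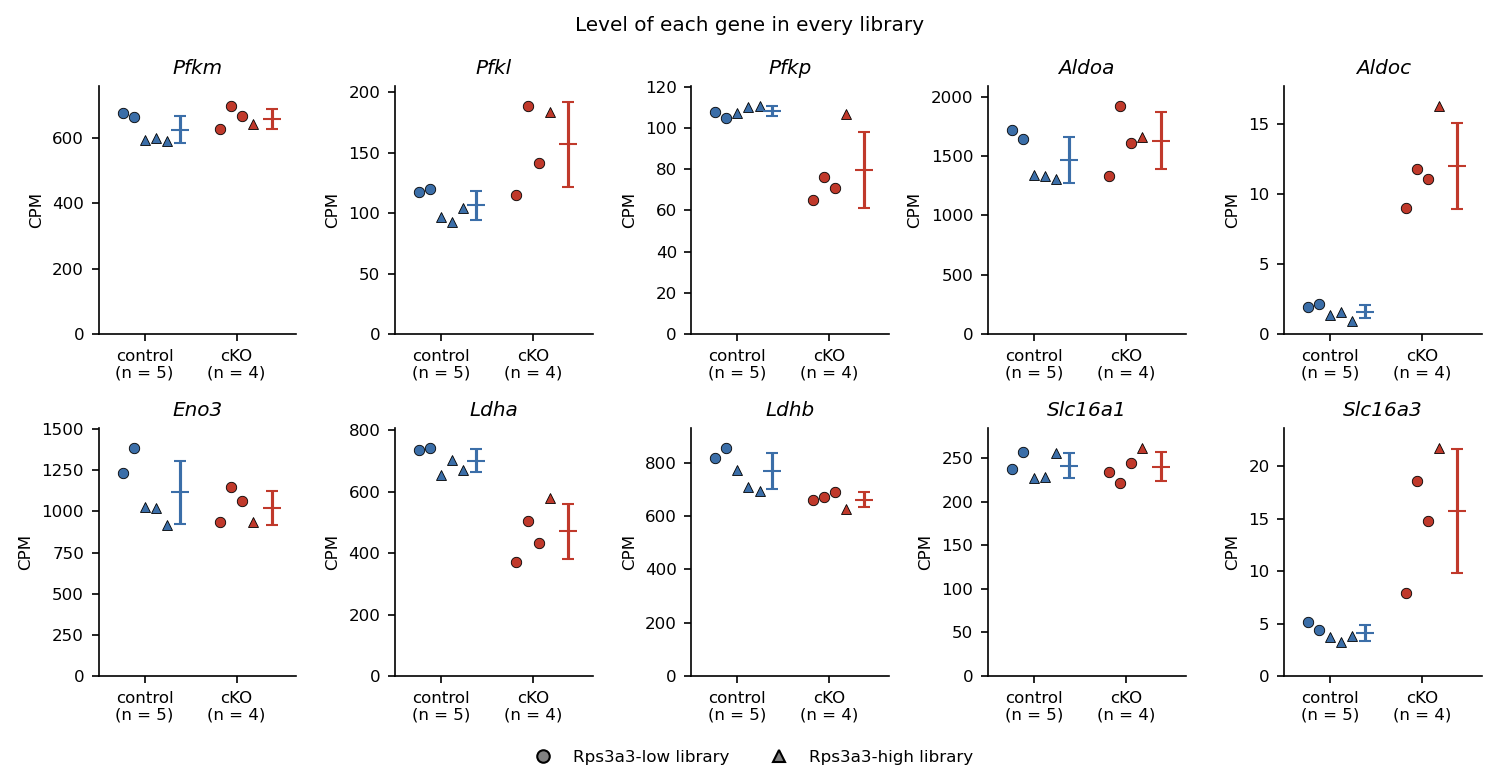
Level of each of the 10 genes in CPM (vertical axis, from 0, a separate scale per gene) in the 5 control (blue) and 4 cKO (red) libraries. Circles are Rps3a3-low and triangles Rps3a3-high libraries, and the bars beside the points are the mean and SD. Aldoc, Ldha, Ldhb and Slc16a3 do not overlap between the groups, and the Pfkp level of cKO replicate 4, at 106.7 CPM, lies inside the control range while the other cKO libraries lie below it.

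Set against transcript length, the order of the 10 genes in control ventricles ran from Aldoa, at 970.2 ± 131 CPM per kb (SD, n = 5), through Eno3 at 713 ± 121, Ldhb at 590.5 ± 52.6, Ldha at 397 ± 21.7, Pfkm at 217 ± 14.6, Slc16a1 at 54.5 ± 3.27, Pfkl at 28.5 ± 3.25, Pfkp at 26.1 ± 0.533 and Slc16a3 at 0.940 ± 0.171 to Aldoc at 0.574 ± 0.172 CPM per kb. These levels are CPM divided by the length of the longest principal transcript. The levels of Pfkl and Pfkp differed by less than 1 SD of Pfkl. In cKO the order differed in the last pair alone, with Aldoc at 4.31 ± 1.10 CPM per kb (SD, n = 4) above Slc16a3 at 3.63 ± 1.37, a gap smaller than either SD. Pfkl at 42.0 ± 9.47 CPM per kb then stood clear of Pfkp at 19.2 ± 4.47, whereas Ldha at 267 ± 50.6 and Pfkm at 228 ± 10.6 CPM per kb differed by less than 1 SD of Ldha. The genes that rose most were thus the lowest of the list in both groups.

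For phosphofructokinase, the muscle gene Pfkm (GRCm38 chromosome 15, 98092589 to 98132451) read 589.7 to 676 CPM in control and 625 to 695 CPM in cKO. The ranges overlapped, and the log2 fold change was 0.08 (adjusted p = 0.473, SE 0.06). Its direction turned among Rps3a3-low libraries, at -0.015, and was kept among Rps3a3-high ones, at 0.115.

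The liver-type gene Pfkl (chromosome 10, 77986947 to 78010083) read 117, 120.2, 97.1, 92.8 and 104 CPM in control replicates 1 to 5 and 115, 188, 141 and 184 CPM in cKO replicates 1 to 4. In cKO replicates 2 to 4 Pfkl lay above all controls, and in cKO replicate 1 it lay among them. From 106 ± 12.1 to 157 ± 35.3 CPM, Pfkl rose by 0.56 on the log2 scale (edgeR adjusted p = 0.0197, SE 0.14), 1.48-fold. The change was 0.32 among Rps3a3-low libraries (adjusted p = 0.455) and 0.91 among Rps3a3-high libraries. The edgeR threshold was missed when cKO replicate 2 was left out (0.46, adjusted p = 0.0642), and likewise cKO replicate 4 (0.48, adjusted p = 0.0604) or control replicate 5 (0.55, adjusted p = 0.0508).

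The platelet-type gene Pfkp (chromosome 13, 6579768 to 6648777) read 108, 105, 108, 110.4 and 110.5 CPM in the controls. In cKO it read 64.9, 76.5, 71.1 and 106.7 CPM. The 3 Rps3a3-low cKO libraries lay far below every control, and cKO replicate 4 read as the controls did. Pfkp fell from 108 ± 2.21 to 79.8 ± 18.5 CPM, by 0.44 on the log2 scale (edgeR adjusted p = 0.0261, SE 0.12). Among Rps3a3-low libraries the change was -0.59 (adjusted p = 0.012) and among Rps3a3-high libraries -0.04 (adjusted p = 0.782). Without cKO replicate 4 the change was -0.61 (adjusted p = 0.000193), whereas 6 of the 9 leave-one-out fits did not pass, with adjusted p up to 0.0808, the value without cKO replicate 3.

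Of the summed phosphofructokinase level per kb, Pfkm held 79.9 ± 0.532% in control and 79.0 ± 3.34% in cKO, Pfkl 10.5 ± 0.633% and 14.4 ± 2.37%, and Pfkp 9.67 ± 0.739% and 6.62 ± 1.33%. The sum itself ran from 258 to 292 CPM per kb in control and from 263 to 310.4 in cKO, with overlapping ranges. In the group means Pfkl and Pfkp thus moved in opposite directions, while the mean share of Pfkm differed by less than its SD in cKO. This did not hold in every cKO library. Pfkl in cKO replicate 1, at 115 CPM, and Pfkp in cKO replicate 4, at 106.7 CPM, lay within their control ranges.

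The muscle aldolase Aldoa (chromosome 7, 126795234 to 126800751) ranged from 1305 to 1716 CPM in control and from 1327 to 1917 CPM in cKO. Its log2 fold change was 0.15 (adjusted p = 0.407, SE 0.11), with -0.052 among Rps3a3-low libraries and 0.33 among Rps3a3-high ones. Aldoa overlaps Fam57b on the opposite strand, which held far fewer counts.

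Aldoc (chromosome 11, 78322968 to 78327781), the brain aldolase, read 1.93, 2.17, 1.38, 1.57 and 0.938 CPM in control replicates 1 to 5. In cKO replicates 1 to 4 it read 8.96, 11.8, 11.0 and 16.2 CPM. Every cKO library stood far above the highest control, and cKO replicate 4 was the highest of all. The rise from 1.60 ± 0.479 to 12.0 ± 3.06 CPM was 2.90 on the log2 scale (edgeR adjusted p = 7.42e-06, SE 0.23), 7.48-fold, the largest change of the 10 genes. It passed in all 9 leave-one-out fits, between 2.72 and 3.04, and was 2.37 among Rps3a3-low libraries and 3.64 among Rps3a3-high ones. Aldoc also marks neurons and astrocytes in brain. Of the neuron and glia markers, Elavl4, Th and Gfap were under 0.5 CPM in all libraries, and the summed list was no higher in cKO than in control. Even in cKO Aldoc made up 0.398 ± 0.087% of the aldolase level per kb, against 0.0584 ± 0.0122% in control.

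Eno3 (chromosome 11, 70657202 to 70662513) read 917 to 1382 CPM in control and 934 to 1149 CPM in cKO, with a log2 fold change of -0.13 (adjusted p = 0.504, SE 0.12), -0.32 among Rps3a3-low libraries and -0.078 among Rps3a3-high ones. Its ubiquitous partner Eno1 changed by 0.17 (adjusted p = 0.544, SE 0.17). Eno2, the neuronal form, ranged from 0.975 to 3.49 CPM in control and from 2.05 to 10.7 CPM in cKO, where cKO replicate 1 lay below the highest control. It rose by 2.01 (edgeR adjusted p = 0.021, SE 0.49) but passed in 3 of the 9 leave-one-out fits, and missed the threshold without cKO replicate 2 (edgeR adjusted p = 0.0631). It passed in neither library set alone, at 2.22 (adjusted p = 0.105) in the Rps3a3-low and 2.35 (adjusted p = 0.191) in the Rps3a3-high libraries. Eno3 held 93.9 ± 1.24% of the summed enolase level per kb in control and 92.5 ± 2.22% in cKO.

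Ldha (chromosome 7, 46841475 to 46855627), whose subunits favour lactate formation, read 736, 741, 655, 705 and 671 CPM in control replicates 1 to 5. In cKO replicates 1 to 4 it read 372, 503, 433 and 579 CPM. All cKO libraries lay below all controls, cKO replicate 1 the farthest and cKO replicate 4 the nearest. Ldha fell from 702 ± 38.4 to 472 ± 89.3 CPM, by 0.57 on the log2 scale (edgeR adjusted p = 0.00383, SE 0.11), which is 0.673 of the control level and just short of the 1.5-fold needed for a call. The fall passed in all 9 leave-one-out fits, between -0.69 and -0.47. It was -0.76 among Rps3a3-low libraries (adjusted p = 0.0128) and -0.23 among Rps3a3-high libraries (adjusted p = 0.1205).

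Ldhb (chromosome 6, 142490249 to 142507957), the heart form, read 819, 854, 773, 711 and 694 CPM in the controls and 662, 670.4, 692 and 626 CPM in cKO. The groups did not overlap, though control replicate 5 and cKO replicate 3 were nearly level. The log2 fold change of -0.22 (SE 0.07) had an adjusted p of 0.0617 by edgeR. It passed with DESeq2 (adjusted p = 0.0281) and once the model also held the library set (-0.27, edgeR adjusted p = 0.00564), as well as without control replicate 5 (-0.26, edgeR adjusted p = 0.0382), so whether Ldhb passed depended on the model and on the libraries used. The change was -0.31 (adjusted p = 0.0496) among Rps3a3-low libraries and -0.21 (adjusted p = 0.159) among Rps3a3-high ones.

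Summed over both subunits, the lactate dehydrogenase level per kb was 988 ± 69.2 in control, from 912 to 1075, and 775 ± 40.4 in cKO, from 718 to 808. It was the one of the 5 summed steps whose ranges did not overlap. Ldha made up 40.3 ± 1.63% of it in control and 34.3 ± 4.93% in cKO.

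Slc16a1 (chromosome 3, 104638668 to 104658462), the main lactate transporter gene of these ventricles, read 227 to 257 CPM in control and 221 to 261 CPM in cKO. Its log2 fold change was -0.01 (adjusted p = 0.955, SE 0.07), the closest to 0 of the 10 genes, and its sign changed with the scaling, at 0.0066 under upper-quartile scaling. The change was -0.086 among Rps3a3-low libraries and 0.14 among Rps3a3-high ones.

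Slc16a3 (chromosome 11, 120948480 to 120960868), the transporter of glycolytic cells, read 5.18, 4.43, 3.71, 3.27 and 3.78 CPM in control replicates 1 to 5. It read 7.90, 18.6, 14.8 and 21.7 CPM in cKO replicates 1 to 4. All cKO libraries were higher than all controls, with cKO replicate 1 closest to them and cKO replicate 4 the highest. The mean rose from 4.07 ± 0.742 to 15.7 ± 5.94 CPM, by 1.95 on the log2 scale (edgeR adjusted p = 0.000416, SE 0.25), 3.86-fold. The rise passed in all 9 leave-one-out fits, between 1.75 and 2.17. Within the Rps3a3-low set it was 1.52 with an adjusted p of 0.0545, and among Rps3a3-high libraries 2.59. Of the lactate transporter level per kb, Slc16a3 held 1.70 ± 0.292% in control and 6.22 ± 2.15% in cKO. The fibroblast marker sum, the skeletal muscle marker sum and, of the smooth muscle and mural list, Acta2 and Cnn1 were higher in cKO together with Aldoc and Slc16a3, and their part in these rises was not tested.

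A ratio of 2 isoforms in the same library does not depend on how libraries are scaled. For 7 such pairs the log2 ratio of counts was compared by a two-sided exact permutation test, where 0.00794 is the smallest p that 5 against 4 libraries allow, with adjustment over the 7 pairs. The ratio of Aldoc to Aldoa was -9.87 ± 0.330 in control (SD, n = 5) and -7.11 ± 0.293 in cKO (SD, n = 4), a difference of 2.77 (exact permutation p = 0.00794, adjusted p = 0.0185). That of Slc16a3 to Slc16a1 went from -5.90 ± 0.238 to -4.02 ± 0.614, by 1.88, and that of Pfkl to Pfkm from -2.56 ± 0.0907 to -2.10 ± 0.301, by 0.46. Both had the same exact permutation p and adjusted p as the aldolase pair, and in all 3 pairs every cKO library lay above every control. In the Pfkl pair the groups nearly met, with cKO replicate 1 at -2.448 and control replicate 2 at -2.464.

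The ratio of Pfkp to Pfkm differed by -0.54 (exact permutation p = 0.0238, adjusted p = 0.0417), with cKO replicates 1 to 3 between -3.27 and -3.18 and cKO replicate 4 at -2.59, within the control range of -2.66 to -2.42. It passed in 1 of the 9 leave-one-out comparisons, that without cKO replicate 4 (-0.70, adjusted p = 0.025 by the exact permutation test), and had adjusted p up to 0.15 in the others. The ratio of Ldha to Ldhb differed by -0.38 and did not pass after adjustment (exact permutation p = 0.0397, adjusted p = 0.0556); its cKO values ran from -0.83 to -0.11 and its control values from -0.24 to -0.01. Without cKO replicate 4 it was -0.51 (adjusted p = 0.025 by the exact permutation test). The pairs of ubiquitous and muscle forms in later steps did not pass, Eno1 to Eno3 by 0.26 (exact permutation p = 0.333, adjusted p = 0.389) and Pgam1 to Pgam2, the phosphoglycerate mutases, by 0.16 (exact permutation p = 0.563, adjusted p = 0.563). When labels were permuted only within the Rps3a3 sets, the Aldoc, Slc16a3, Pfkl and Pfkp pairs had the smallest p those allow, 0.025 (exact permutation, adjusted p = 0.0438), and the Ldha pair had 0.05 (adjusted p = 0.07).

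**Figure D2:**
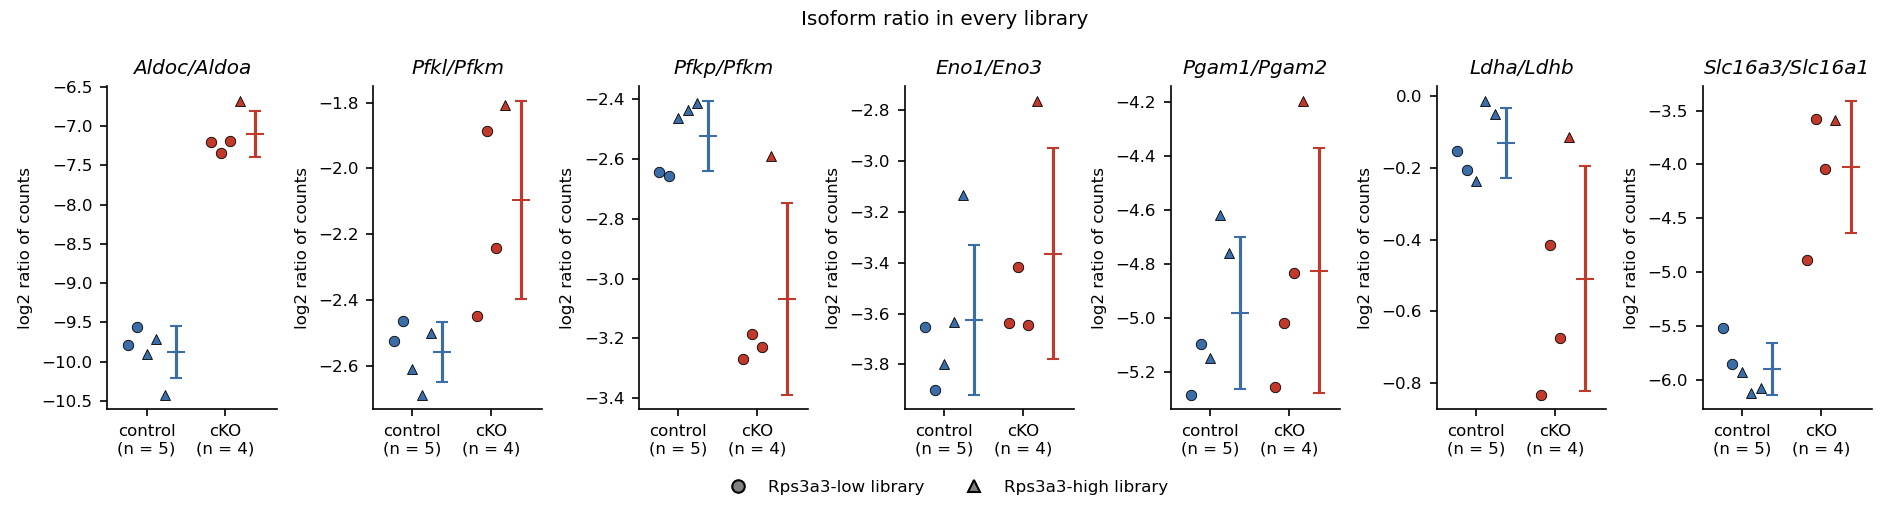
Log2 ratio of counts (vertical axis, a separate scale per pair) for 7 isoform pairs in the 5 control (blue) and 4 cKO (red) libraries. Circles are Rps3a3-low and triangles Rps3a3-high libraries, and bars give the mean and SD. The Aldoc, Pfkl and Slc16a3 pairs are higher in every cKO library than in every control, though the groups nearly meet in the Pfkl pair. In the Pfkp pair cKO replicate 4, at -2.59, lies with the controls.

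The change of every gene was more positive, or less negative, in the Rps3a3-high than in the Rps3a3-low set, in 10 of 10 genes beside 48.8% of all tested genes. The difference between the sets, as a genotype by set interaction in edgeR, passed an adjusted p of 0.05 in 0 of 10 genes and in 2 genes of the whole table. At an unadjusted p under 0.05 it stood in 4 of 10, Pfkp at 0.55 (adjusted p = 0.471, SE 0.12), Aldoc at 1.27 (adjusted p = 0.735, SE 0.33), Ldha at 0.53 (adjusted p = 0.947, SE 0.17) and Slc16a3 at 1.08 (adjusted p = 0.947, SE 0.46), beside 4.05% of all tested genes. The Rps3a3-high side of each difference rests on cKO replicate 4, the sole cKO library of that set, so the set and that library cannot be told apart.

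**Figure D3:**
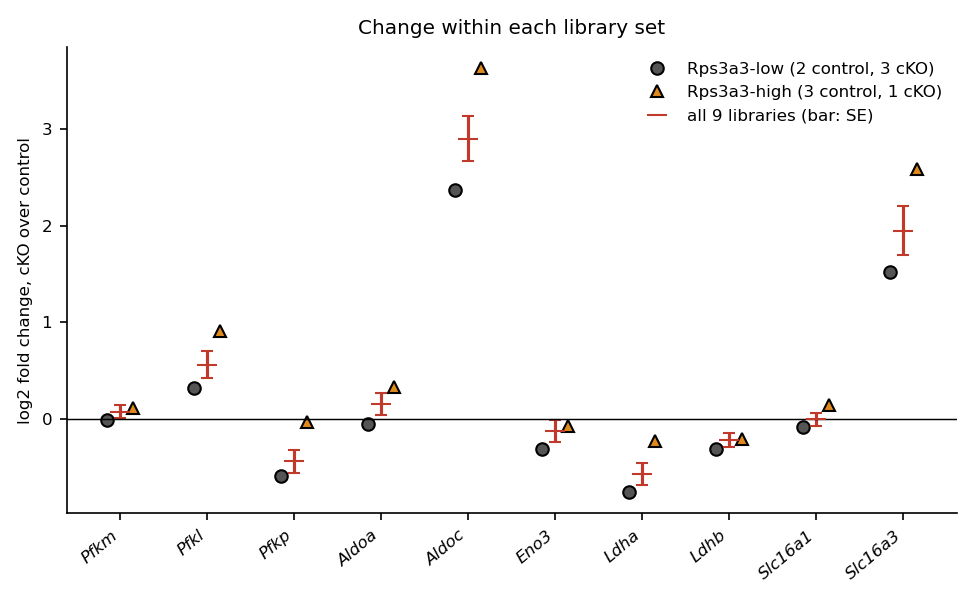
Log2 fold change of cKO over control (vertical axis) for each of the 10 genes within the Rps3a3-low libraries (circles), within the Rps3a3-high libraries (triangles) and over all 9 libraries (red, with SE). Every triangle lies above its circle, and Pfkm, Aldoa and Slc16a1 lie on opposite sides of 0 in the 2 sets.

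Around these isoforms stood a wider list of 34 glycolysis and lactate genes, of which 30 were tested. Pklr, Ldhc and Slc16a8 were among those with too few counts. Leaving out the 10 genes above, 8 of the other 20 tested genes passed, 6 higher and 2 lower, beside 16.3% of all tested genes, and 6 were called, 4 higher and 2 lower, beside 6.72% of all, 4.01% higher and 2.72% lower. Their median log2 fold change was 0.22, with 0.03 among Rps3a3-low libraries and 0.38 among Rps3a3-high ones.

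Among genes of lactate and monocarboxylate transport, Slc16a7 (MCT2), a carrier with high affinity for pyruvate and lactate, read 6.98 to 8.67 CPM in control and 22.0 to 25.8 CPM in cKO and rose by 1.62 on the log2 scale (edgeR adjusted p = 7.49e-07, SE 0.10), with 1.71 among Rps3a3-low libraries and 1.5 among Rps3a3-high ones. Bsg, which encodes the chaperone that brings MCT1 and MCT4 to the cell surface, read 689 to 861 CPM in control and 917 to 1199 CPM in cKO and rose by 0.53 (edgeR adjusted p = 0.00235, SE 0.09). Emb, the gene of the related chaperone embigin, rose by 0.95 from about 1.55 CPM (edgeR adjusted p = 0.0318, SE 0.27), and passed in 3 of the 9 leave-one-out fits, with the highest adjusted p, 0.069 by edgeR, without control replicate 4. Its change was 0.55 among Rps3a3-low libraries (adjusted p = 0.268) and 1.30 among Rps3a3-high ones. Ldhd, a mitochondrial D-lactate dehydrogenase, read 3.85 to 6.98 CPM in control and 8.23 to 12.8 CPM in cKO and rose by 0.99 (edgeR adjusted p = 0.00323, SE 0.18). Among Rps3a3-low libraries Bsg passed at 0.48 and Ldhd at 0.79, and with the lone Rps3a3-high cKO library the changes were 0.36 and 0.86.

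Among genes that tune phosphofructokinase, Pfkfb2, the heart form of the bifunctional enzyme that makes and removes its sugar phosphate activator, fell by 0.74 (edgeR adjusted p = 4.82e-05, SE 0.08). Its libraries read 89.2 to 99.6 CPM in control and 48.9 to 60.9 CPM in cKO. Pfkfb4, another form of that enzyme, fell by 0.73 (edgeR adjusted p = 0.00345, SE 0.14), while Pfkfb1 and Pfkfb3 did not pass. Among Rps3a3-low libraries both passed, Pfkfb2 at -0.83 and Pfkfb4 at -0.85, and with the lone Rps3a3-high cKO library the changes were -0.65 and -0.83. Pgk1, which makes ATP in a later step of the pathway, read 143 to 158 CPM in control and 178 to 219 CPM in cKO and rose by 0.38 (edgeR adjusted p = 0.00213, SE 0.07), with 0.31 among Rps3a3-low libraries (adjusted p = 0.0712) and 0.56 among Rps3a3-high ones. Hk1, Hk2, Gpi1, Tpi1, Gapdh, Bpgm and Pkm did not pass. Pgam1 (0.54, adjusted p = 0.0869) and Pgam2 (0.32, adjusted p = 0.0659) did not pass by edgeR but passed with DESeq2 (adjusted p = 0.0369 and 0.0383).

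**Figure D4:**
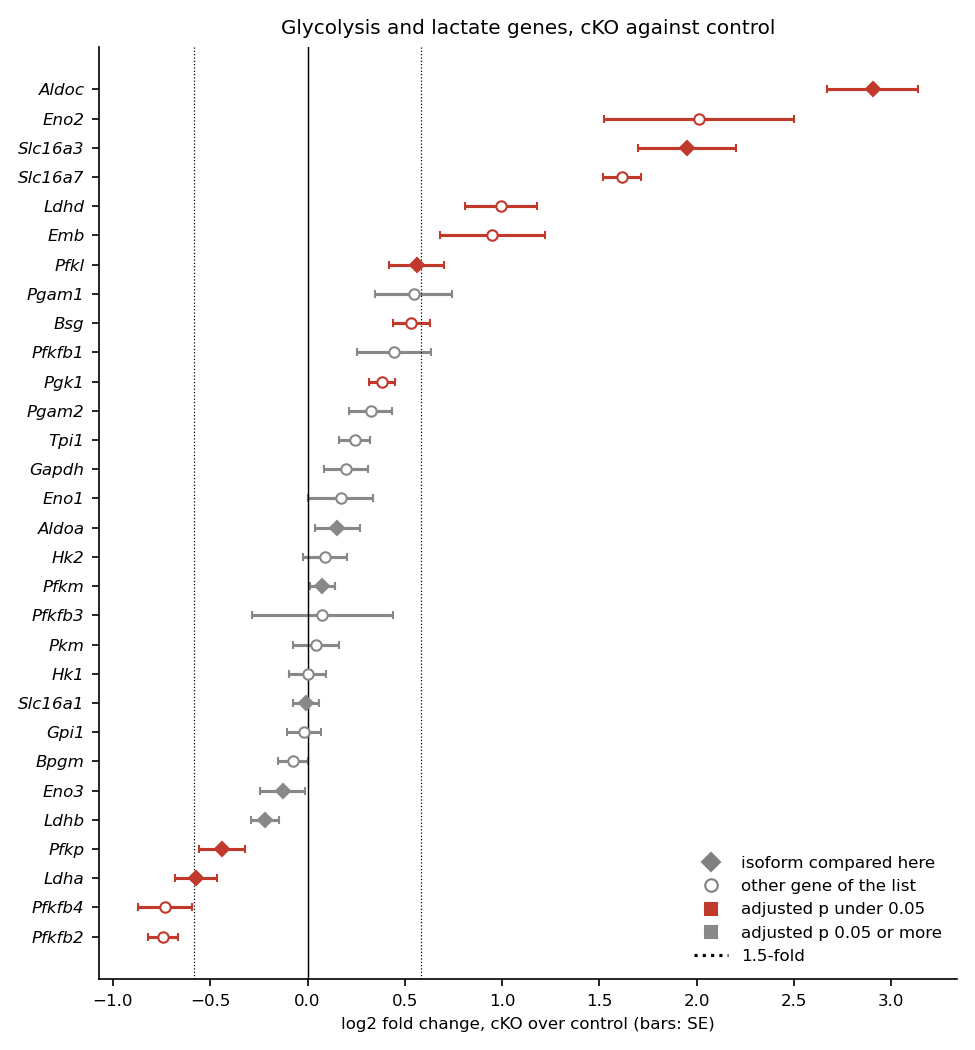
Log2 fold change of cKO over control (horizontal axis) with SE for the 30 tested genes of the glycolysis and lactate list, in order of size. Filled diamonds are the 10 isoforms compared and open circles the other genes, red marks an adjusted p under 0.05 and dotted lines mark 1.5-fold. Aldoc, Eno2, Slc16a3 and Slc16a7 stand farthest to the right and Pfkfb2, Pfkfb4 and Ldha farthest to the left.

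Since Aldoc, Ldha and Slc16a3 are known targets of the hypoxia-inducible factor, 26 genes of its pathway were read beside them. Of the 26, all tested, 6 passed, 3 higher and 3 lower, beside 16.3% of all tested genes, and 1 was called, Pfkfb4, beside 6.72% of all. The median log2 fold change was 0.01, as over all tested genes. Hif1a, the gene of the factor's regulated subunit, rose by 0.40 (edgeR adjusted p = 0.0397, SE 0.12), but passed in 2 of the 9 leave-one-out fits (0.30, edgeR adjusted p = 0.114, without cKO replicate 4). The mitophagy receptor gene Bnip3 rose by 0.38 (edgeR adjusted p = 0.00981, SE 0.09) and the heme oxygenase gene Hmox1 by 0.53 (edgeR adjusted p = 0.0243, SE 0.14). Pfkfb4, the collagen prolyl hydroxylase gene P4ha2, at -0.38 (edgeR adjusted p = 0.00456, SE 0.07), and Ndrg1, at -0.30 (edgeR adjusted p = 0.0481, SE 0.09), fell. In leave-one-out fits Bnip3 and P4ha2 passed 9 of 9 times, Hmox1 4 and Ndrg1 3. Among Rps3a3-low libraries, which hold 3 of the 4 cKO libraries, Pfkfb4 alone of these 6 genes passed: Hmox1 was at 0.24 (adjusted p = 0.408), Hif1a at 0.40 (adjusted p = 0.164), Bnip3 at 0.42 (adjusted p = 0.0693), P4ha2 at -0.40 (adjusted p = 0.0534) and Ndrg1 at -0.32 (adjusted p = 0.173). Among Rps3a3-high libraries Hmox1 was at 0.76, Hif1a at 0.61, Bnip3 at 0.47, P4ha2 at -0.44 and Ndrg1 at -0.45. Vegfa, Car9, Slc2a1 and Pdk1 were among the 20 that did not pass.

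By Pearson's r of log2 CPM over the 9 libraries, among 10737 genes with a mean of at least 5 CPM, the genes most like Aldoc were Ece2 (0.994), Pcolce2 (0.989) and Sntg2 (0.987). Those most like Slc16a3 were Tgm2 (0.992), Ppa1 (0.992) and Upp1 (0.985), and those most like Ldha were Dlst (0.985), Map2k3 (0.984) and Phyhip (0.981). For Pfkl the nearest gene was Sec13 (0.993), for Pfkp Pcbp3 (0.987), for Ldhb Tcea3 (0.975), for Aldoa Shmt2 (0.987), for Eno3 Cdk5 (0.983), for Pfkm Psmg4 (0.977) and for Slc16a1 Zscan18 (0.860). These are the highest of many correlations over 9 libraries that share a genotype contrast and a library set, and they describe likeness in these libraries alone.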

How the data were processed

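Poly(A) RNA of 9 ventricle libraries was sequenced as single-end reads with a stranded kit. The authors deposited raw read counts per gene as 1 table, with no normalization; the submitters' processing notes name STAR 2.4.2a, HTSeq 0.6.1 and mm10, while the counting annotation and strand setting are not given in the sources used here. Overlapping genes (Aldoa and Fam57b, Pfkm and Senp1, Pfkp and Pitrm1) and near-identical copies of Aldoa and Ldha are therefore uncertain. The table held 0 other sample columns. Symbols, coordinates and transcript lengths came from GENCODE M21 on GRCm38, which named 36429 of 38293 identifiers.

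Counts were tested in R 4.3.3 with edgeR 4.0.16 (TMM, filterByExpr with a minimum count of 10, robust quasi-likelihood fit, genotype alone, two-sided), and SEs were computed from the F statistic. The study's methods used DESeq2; DESeq2 1.42.0 was an alternative here. Genes were called at an adjusted p under 0.05 and over 1.5-fold, over 15318 tested genes. Isoform ratios used counts plus 0.5. All 5 libraries labelled control were used. Groups came from the labels and 0 libraries were left out. No pair of libraries agreed within sampling noise. Replicate numbers did not pair the libraries (correlations of deviations 0.01 to 0.23). The fit was tested on simulated data with 200 changed genes. The 10 genes, the lists and the alternatives were chosen with earlier results of these data known. Genes given with values are, by rule, the 10, their ratio partners, list genes past the threshold and the 3 genes most like each of the 10 by correlation, of which 1 is printed for 7 of the 10. Marker genes and list genes that did not pass are named outside that rule. Values of some single genes are not reported here.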

Additional observations from a re-analysis of the deposited data

Results flagged for a closer look

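The log2 ratio of Pfkp to Pfkm in cKO replicate 4, at -2.59, stood apart from the other cKO libraries, which lay between -3.27 and -3.18. Its gap to the nearest of them was 0.877 of the range of the group, more than such a test of a single distant value allows in a group of 4. It was the 1 value to do so among 34 groups tested, of which chance gives about 1 in 20. The control range of this ratio was -2.66 to -2.42. Without cKO replicate 4 the ratio differed between the groups by -0.70 and the Pfkp level by -0.61 on the log2 scale.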

How the results depend on the processing

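In the levels, Aldoc, Slc16a3 and Ldha kept their direction in all 20 alternatives, and Pfkm, Aldoa, Eno3 and Slc16a1 passed in none of them except Aldoa among Rps3a3-high libraries (0.33, adjusted p = 0.0211 by edgeR). Changes turned sign for Pfkm (-0.015) and Aldoa (-0.052) among Rps3a3-low libraries, and for Slc16a1, which stayed near 0, with upper-quartile scaling (0.0066), a mean of at least 1 CPM (0.00030), the replicate number as a block (0.0139), the library set as a term (0.0010) and among Rps3a3-high libraries (0.14), and between -0.050 and 0.030 when a library was left out. The number of the 10 genes called was 2 to 4 and the number past an adjusted p of 0.05 was 3 to 5 when a library was left out; 4 were called without cKO replicate 4 and 3 passed without cKO replicate 2. With the replicate number as a block, the pairs gave differences in log2 ratio of 2.63 (Aldoc to Aldoa), 0.48 (Pfkl to Pfkm), -0.52 (Pfkp to Pfkm), 1.83 (Slc16a3 to Slc16a1), 0.38 (Eno1 to Eno3), 0.21 (Pgam1 to Pgam2) and -0.36 (Ldha to Ldhb). All 7 had an exact permutation p adjusted to 0.125, the smallest that 16 sign flips allow, so the block does not separate pairs that passed from those that did not; control replicate 5 has no partner there. Under the block Pfkl no longer passed (adjusted p = 0.0733 by edgeR), and no other of the 10 genes crossed an adjusted p of 0.05. There 3 were called, since the fall of Ldha exceeded 1.5-fold (-0.606, adjusted p = 0.00882 by edgeR). Ldha was also called without control replicate 3 (-0.596), control replicate 5 (-0.594), cKO replicate 2 (-0.605) or cKO replicate 4 (-0.686). Leaving out a library gave differences in log2 ratio of 2.63 to 2.85 for Aldoc, 0.37 to 0.58 for Pfkl, -0.70 to -0.48 for Pfkp, 0.06 to 0.38 for Eno1, -0.054 to 0.30 for Pgam1, -0.51 to -0.27 for Ldha and 1.73 to 2.16 for Slc16a3, and without any 1 control the Aldoc, Pfkl and Slc16a3 pairs had an adjusted p of 0.0667, with those 3 of the 7 pairs at the smallest p that 4 against 4 libraries give. Over all genes the fit called 1030, against 620 when fitted to Rps3a3-low libraries alone and 1361 to Rps3a3-high ones. At these depths Aldoc rested on 29 to 75 counts per control library.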

Other observations

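Libraries of the same genotype stood in different places across the list. Both Rps3a3-low controls read higher than all 3 Rps3a3-high controls in 8 of the 10 isoform genes and in 19 of the 30 tested genes of the glycolysis and lactate list (63.3%), beside 23.5% of all tested genes. Among the cKO libraries, cKO replicate 1 was the lowest in 7 of the 10 genes and in 18 of the 30 (60%), beside 27.6% of all tested genes. The lowest was cKO replicate 4 in 2 of the 10 and in 7 of the 30 (23.3%), near its share of 24.8% of all tested genes. The highest cKO library was cKO replicate 4 in 5 of the 10 genes and in 11 of the 30 (36.7%), beside 25.1% of all tested genes, and cKO replicate 2 in 4 of the 10 and in 10 of the 30 (33.3%), beside 29.5%. Marker sums followed part of this order: the erythroid sum read 936 and 873 CPM in the Rps3a3-low controls and 486 to 619 CPM in the Rps3a3-high controls, and 740.1 to 1145 CPM in cKO. The cardiomyocyte sum read 49828 and 48553 CPM in the Rps3a3-low and 42943 to 44383 CPM in the Rps3a3-high controls, and was lowest in cKO replicate 1, at 39531 CPM. Their part in the order of the glycolysis genes was not tested. The genes of a pathway are not independent, and no test was made of these counts.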
